A study of Homo sapiens with 2 samples.

Results

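CIC occupancy was examined at 5 growth and oncogene loci, those of CCND1, CCND2, IGF1R, PLAG1 and MAFF, in PNT2, an immortalized prostate epithelial cell line. Chromatin immunoprecipitation followed by sequencing (ChIP-Seq) gave 1 library pulled down with an antibody to the transcription factor Capicua (CIC) and 1 control library pulled down with IgG, both from PNT2 cells fixed in 1% formaldehyde, with no treatment named in the labels. The authors called regions in the CIC library over the IgG library, and a region was taken for a locus when its summit, the position of the highest read pileup, fell in a fixed stretch of hg19, the build named in the submitters' processing notes. These stretches were 69.05 to 69.52 Mb of chromosome 11 for CCND1 and the sequence before it, 4.33 to 4.45 Mb of chromosome 12 for CCND2, 99.14 to 99.52 Mb of chromosome 15 for IGF1R, 57.05 to 57.15 Mb of chromosome 8 for PLAG1 and 38.57 to 38.63 Mb of chromosome 22 for MAFF. They held 10 of the 178 deposited regions, with 4 at CCND1, 2 at IGF1R, 2 at PLAG1, 1 at CCND2 and 1 at MAFF. The loci were chosen with these regions in view, so their values are a description and no test was made of them. With 1 library per antibody there were no replicates, a ChIP-Seq list cannot show whether a gene is expressed, and the labelled cell type could not be checked against marker genes.

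CIC is a repressor with a high mobility group (HMG) box that reads short words such as TGAATGAA and TGAATGGA in DNA. Signalling from receptor tyrosine kinases through RAS and ERK relieves its repression, and genes of that pathway are among its best known targets. IGF1R is the receptor tyrosine kinase for insulin-like growth factors and signals through PI3K and RAS. CCND1 and CCND2 encode cyclins D1 and D2, which pair with CDK4 or CDK6 to phosphorylate RB1 and move cells into S phase. PLAG1 is a zinc finger activator of IGF2 and an oncogene of salivary gland adenomas. MAFF is a small MAF protein, a basic leucine zipper factor that binds DNA with partners such as NFE2L2 or BACH1.

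Promoter sequences were taken from RefSeq (GRCh38.p14), where IGF1R had 1 start and MAFF had 2. The promoters of the other 3 genes, CCND1, CCND2 and PLAG1, were not searched here. The starts lie in another build than the regions, so a promoter could not be laid over a region and no distance from a summit to a transcript start is given. Each promoter was searched over the 250 bases before and the 50 bases after the start for TGAATGAA, TGAATGGA, TCAATGAA and TCAATGGA on both strands. The general motif in the paper reads as TGAATGAA, TGAATAAA, TCAATGAA or TCAATAAA, so TGAATGGA and TCAATGGA are not part of it. The 250 bases before the start are shown for IGF1R, and for the first MAFF start because it held a word, which is in capitals. Both genes are on the plus strand, on chromosomes 15 and 22.
IGF1R: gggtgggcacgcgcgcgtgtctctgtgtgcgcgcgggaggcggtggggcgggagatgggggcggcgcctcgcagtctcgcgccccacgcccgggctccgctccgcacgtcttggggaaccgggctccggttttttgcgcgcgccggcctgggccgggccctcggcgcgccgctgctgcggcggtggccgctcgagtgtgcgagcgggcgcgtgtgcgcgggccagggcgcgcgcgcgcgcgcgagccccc
MAFF: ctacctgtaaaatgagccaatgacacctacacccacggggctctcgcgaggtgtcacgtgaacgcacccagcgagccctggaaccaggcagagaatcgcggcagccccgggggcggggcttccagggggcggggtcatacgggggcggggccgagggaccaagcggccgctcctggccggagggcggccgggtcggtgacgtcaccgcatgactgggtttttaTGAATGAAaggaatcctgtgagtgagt

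The first MAFF promoter held TGAATGAA once, on the strand of the gene, from 27 to 20 bases before the start. After 1 further base came GGAA, the core read by ETS factors such as the repressor ERF. TGAATGAA was found in 1.65% of the 35116 promoters of the table and any of the 4 words in 3.77%, while GGAA on either strand was found in 95.5% and so sets no promoter apart. The second MAFF promoter and the IGF1R promoter held none of the 4 words. With the general motif of the paper the count was also 1 promoter, and 4.52% of all promoters held a match. The bases before the IGF1R start were 81.2% G or C, against 65.6% before the first MAFF start. Among 24 genes of the same pathways (the cyclin D, IGF, PLAG and small MAF axes), 20 had a promoter in the table, and 3 of them held a word, namely RB1, IGF1 and MAFG. These were 3 of 32 promoters, or 9.38%. A match or its absence in these windows says nothing of binding.

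Fold enrichment is the authors' linear ratio of CIC reads at the summit to a background set by the IgG library, with 1 added to each. Over the 10 regions its median was 7.65, against 6.02 over all 178, and it ran from 3.77 to 11.5. The regions fell at both ends of the list. Of the 10, 5 had a fold of 8 or more (14.6% of the list) and 7 had a fold of 5 or more (73.0% of the list). A q-value of 0.05 or less was found for 9 of the 10 (91.6% of the list) and a q-value of 0.01 or less for 8 (81.5% of the list). Nothing is read from these shares, since the loci were picked from this list. The region with the highest fold at each locus lay at ranks from 3 to 23, limits that these regions set themselves. The remaining regions lay at CCND1, IGF1R and PLAG1. At the lower end were the fourth CCND1 region at rank 146, the second IGF1R region at rank 157 and the third CCND1 region at rank 170.

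**Figure D1:**
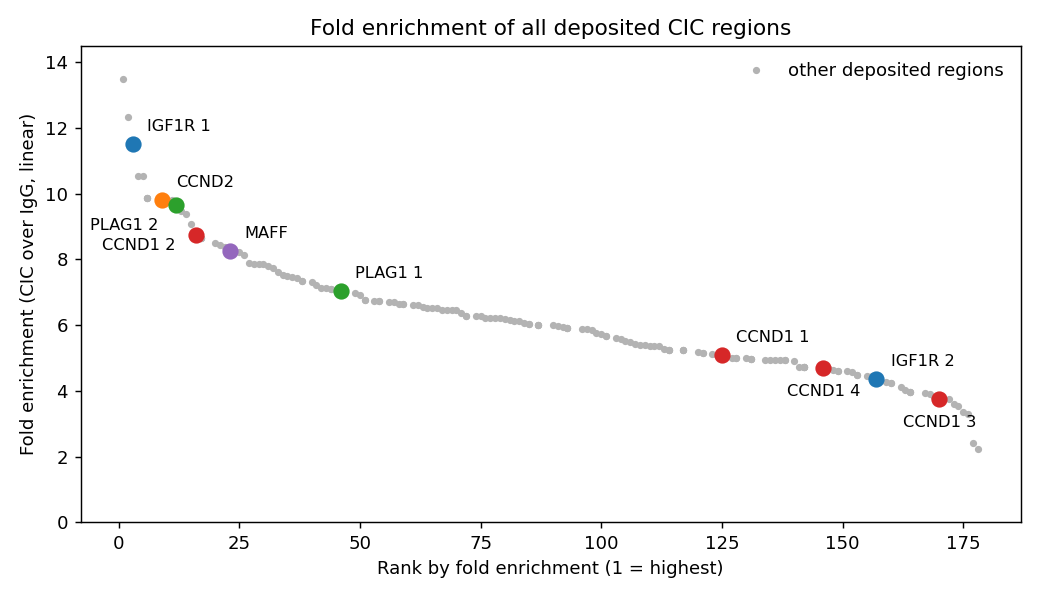
Fold enrichment (linear) of all 178 deposited regions against their rank, with the 10 regions at the 5 loci in colour and numbered along the chromosome. The strongest region of each locus lies between ranks 3 and 23, while the other CCND1 regions lie at ranks 125, 146 and 170.

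At IGF1R, the receptor of the group, the first region spanned chr15:99164359-99164928. It had the highest fold of the 10, at 11.5, which was rank 3 of 178, with a q-value of 7.04e-15. Its summit held 27 CIC reads (95% interval 17.8 to 39.3, exact Poisson) where the background was 0.905 reads, the genome-wide rate and thus the lowest background a region could have. Without the added 1 the ratio of CIC to background was 23.1 (exact 95% interval, 15.2 to 33.7), the highest of the list. These intervals and those below cover counting error only. The IgG library therefore showed no local excess over 1 kb or 10 kb at this summit.

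The second IGF1R region, chr15:99165899-99166082, began 970 bp after the first one ended. It had 10 CIC reads (exact Poisson 95% interval, 4.80 to 18.4), the fewest among the 10 regions, and a fold of 4.38. Its q-value was 0.323, so it was the region among the 10, and 1 of 15 in the list, that did not reach 0.05. The background there rested on 1 IgG read at the summit, which left the ratio of 7.75 with an interval from 1.103 to 336. Its summit was the fourth base of a region of 184 bp. Both IGF1R regions together covered a stretch of 1724 bp, and the closest other region on chromosome 15 had its summit 2.21 Mb away.

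**Figure D2:**
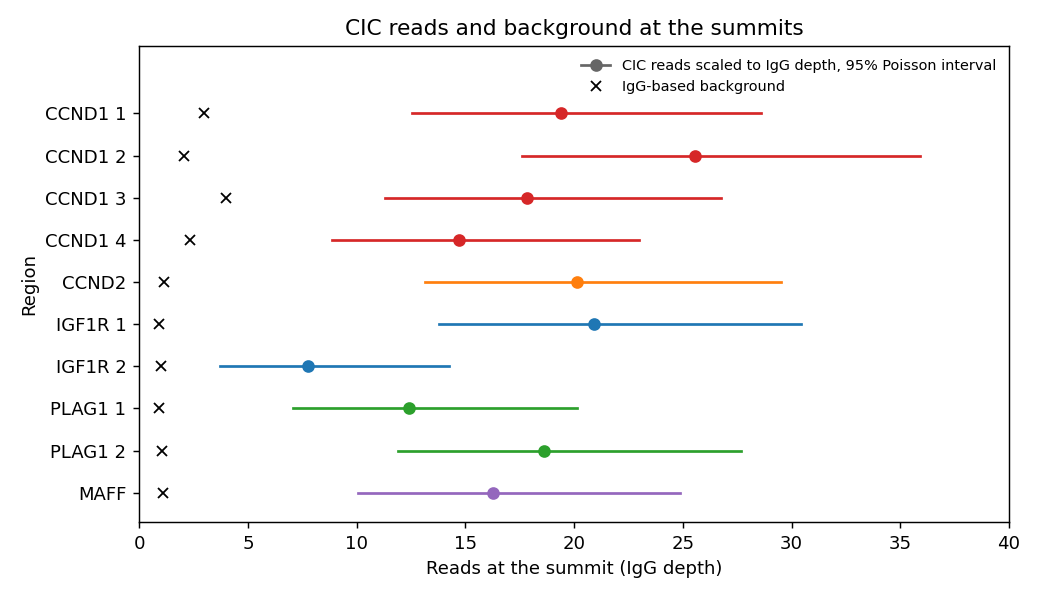
CIC reads at the 10 summits, scaled to the depth of the IgG library, with exact Poisson 95% intervals as bars and the IgG-based background as crosses. Each interval lies above its background, which follows from the calling of regions over that same background. The crosses of the 4 CCND1 regions lie at 2.04 to 4 reads, and those of the other 6 at 0.905 to 1.15.

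At CCND2 there was 1 region, chr12:4376299-4378050. It was the widest of the 10, at 1752 bp, and rank 5 of the list by width, whose median was 282 bp. Its fold was 9.82, rank 9 of 178, with a q-value of 5.33e-13. The summit lay 1124 bp from the first base and held 26 CIC reads (95% interval 17.0 to 38.1, exact Poisson) where the background was 1.15. The background rested on 74 IgG reads over 10 kb, so that the ratio without the added 1, 17.5, had an interval of 10.7 to 27.6. Chromosome 12 had 2 regions in the list, and the other lay 5.65 Mb away with a fold of 5.93.

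At CCND1 the 4 regions fell in 2 places. The first 3 lay within 4681 bp, at chr11:69064792-69065054, chr11:69065948-69066311 and chr11:69069129-69069472. The fourth, at chr11:69258130-69258368, began 188657 bp further on. In the gene table the protein-coding gene next to CCND1 on the side of lower coordinates is MYEOV, and which of these genes a region is nearer to was not worked out, because the build differs. The regions are therefore CCND1 regions by position in the stretch alone.

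The second CCND1 region had the highest fold of the 4. It had 33 CIC reads (95% interval 22.7 to 46.3, exact Poisson), the most of the 10 regions and rank 10 in the list, with a fold of 8.73 and a q-value of 1.83e-13. The first region had 25 CIC reads with a fold of 5.09 and a q-value of 2.23e-05. The third had 23 CIC reads with a fold of 3.77 and a q-value of 0.0170, the lowest fold of the 10. The fourth had 19 CIC reads with a fold of 4.71 and a q-value of 0.00299. The read counts of the 4 overlapped within their Poisson intervals. Without the added 1 the ratio was 6.46 at the first region (exact 95% interval, 1.97 to 33.4) and 12.5 at the second (8.27 to 18.5). At the third it was 4.46 (1.52 to 17.7), and the ratio intervals of the 4 overlapped as well. Fold differed up to 2.32 times, between the second and the third, whose ratio intervals overlapped, and this difference was not tested.

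At CCND1 fold was low for the number of CIC reads. The first, the third and the fourth region had folds of 3.77 to 5.09 with 19 to 25 CIC reads, where the MAFF region reached a fold of 8.26 with 21. The backgrounds of the CCND1 regions were 3, 2.04, 4 and 2.34 reads. Those of the first and the third came from few IgG reads, at the summit itself. The first, with 3 IgG reads, was 3.32 times the genome-wide rate with an interval that includes no excess (exact Poisson 95% interval, 0.684 to 9.69). The third, with 4 IgG reads, was 4.42 times that rate (exact Poisson 95% interval, 1.20 to 11.3). The intervals of the CCND1 backgrounds do not allow for the choice among summit, 1 kb, 10 kb and genome-wide values, which favours high ones. The background of the second came from 131 IgG reads over 10 kb, where the genome-wide rate gives 58.0, and was 2.26 times that rate (exact Poisson 95% interval, 1.89 to 2.68). The fourth, in the other place, had 2.59 times the rate (exact Poisson 95% interval, 1.45 to 4.27), from 15 IgG reads if counted over 1 kb. Without the added 1 its ratio was 6.29, with an interval of 3.03 to 13.3 for a count over 1 kb and 3.69 to 10.2 for one over 10 kb. A background of 2 reads or more was found for these 4 and for none of the other 6 regions, and for 36.0% of the list. By the definition of fold, a low fold for a given number of CIC reads is the same observation as a high background. Why the backgrounds were higher here was not tested.

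**Figure D3:**
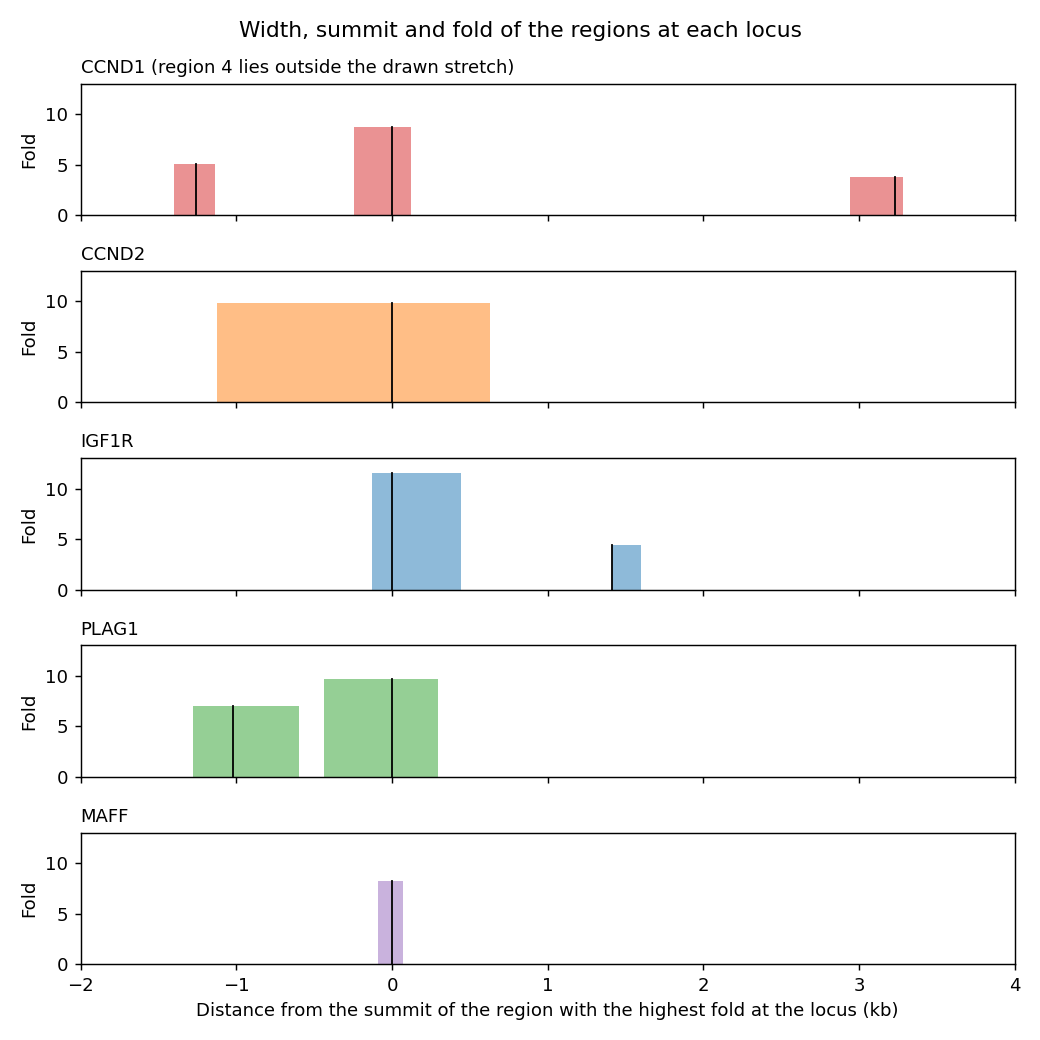
Position of the regions at each locus as distance (kb) from the summit of the strongest one, with coloured blocks for width, block height for fold enrichment (linear) and a black line for the summit. The neighbours at CCND1, IGF1R and PLAG1 lie within 3.3 kb of that summit except the fourth CCND1 region, which is not drawn, and CCND2 and MAFF have 1 block each.

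At PLAG1, 2 regions were parted by a gap of 165 bp, at chr8:57118409-57119090 and chr8:57119256-57119987. They were of like width, at 682 and 732 bp, and their summits were 1020 bp apart. The first had 16 CIC reads (exact Poisson 95% interval, 9.15 to 26.0), a fold of 7.04, rank 46, and a q-value of 6.58e-06. The second had 24 CIC reads (exact Poisson 95% interval, 15.4 to 35.7), a fold of 9.66, rank 12, and a q-value of 1.53e-11. The second was thus 1.37 times the first in fold, and both the read intervals and the ratio intervals overlapped. Backgrounds were low at both, with the genome-wide rate at the first and 66 IgG reads over 10 kb, or 1.03 reads per summit, at the second. The ratios without the added 1 were 13.7 (exact 95% interval, 7.84 to 22.3) and 18.1 (exact 95% interval, 10.8 to 29.2). PLAG1 was the locus with neighbouring regions of which both lay above the median fold of the list.

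At MAFF there was 1 region, chr22:38597830-38597992, and it was the single deposited region of chromosome 22. It was the narrowest of the 10, at 163 bp, and rank 158 of 178 by width, where the narrowest deposited region had 156 bp. Its fold of 8.26 was rank 23, with a q-value of 5.74e-09. The summit held 21 CIC reads (95% interval 13.0 to 32.1, exact Poisson) where the background was 1.09, and the ratio without the added 1 was 14.9. The interval of that ratio was 6.10 to 41.5 with the background read as 7 IgG reads over 1 kb, and 8.69 to 24.6 with 70 reads over 10 kb, which the value fits equally.

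**Figure D4:**
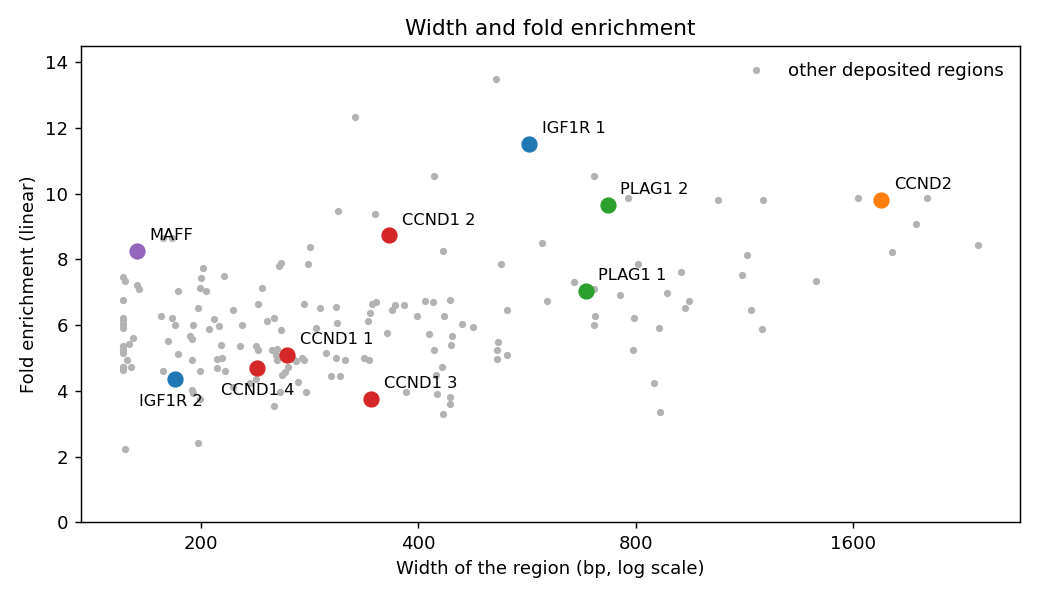
Width (bp, log scale) against fold enrichment (linear) for the 178 deposited regions, with the 10 regions at the 5 loci in colour. CCND2 at 1752 bp and MAFF at 163 bp mark the widest and the narrowest of the 10, with folds of 9.82 and 8.26.

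Width and fold did not rank the loci alike. The CCND2, IGF1R and PLAG1 regions with a fold of 7 or more were 570 to 1752 bp wide. The second CCND1 region had a fold of 8.73 over 364 bp, and the MAFF region had one of 8.26 over 163 bp. Of the 10 regions 6 were at or above the median width of the list. The summit lay within 20% of the width from an edge in 2 of the 10, the third CCND1 region and the second IGF1R region, and in 19.7% of the list.

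By overlap of their intervals, which cover counting error only, the order of the loci was mostly not resolved. Overlap of separate intervals is not a test of a difference, so a pair that overlaps may still differ. Of the 45 pairs that the 10 regions form, 1 had ratio intervals that did not overlap, the first IGF1R region against the fourth CCND1 region. With the background of the fourth CCND1 region and of MAFF read over 10 kb, which their values fit equally, 3 pairs lay apart, the fourth CCND1 region against the first IGF1R region, the CCND2 region and the second PLAG1 region. For CIC reads, 1 of 45 pairs had intervals apart. No deposited region lay just outside a stretch on chromosomes 8, 11, 12 or 15. The closest was 2.19 Mb beyond the edge at IGF1R, with a fold of 6.61, and at the other 3 loci it was 3.67 Mb or more away. Within the stretches the summit closest to an edge was 14.9 kb inside, at CCND1.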

How the data were processed

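ChIP-Seq was performed on PNT2 cells with 1 CIC and 1 IgG library. Per the labels, 10 ng of DNA was amplified over 13 cycles after sonication, whereas the study's methods name an enzymatic kit. The submitters' processing notes list Trimmomatic 0.33, Bowtie 1.1.2, MACS2 2.1.0 and hg19, and MACS2 settings and the handling of duplicates are not given in the sources used here. The paper states paired-end sequencing, and how mates were counted is not given. The intervals take reads as independent, so mates or duplicates counted separately would make them too narrow. The authors deposited a fold enrichment (linear ratio), the −log10 of a p-value and of a q-value at each summit, and a score that is 10 times the latter, cut to a whole number.

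CIC reads and background were recovered from fold and p-value with scipy 1.17.1. The fold was read as (scaled reads + 1) / (background + 1), and the p-value as a Poisson tail. A scale of 0.7752 gave whole reads, within 0.001, in 178 of 178 regions and the next best scale, its simple fraction aside, in 97 within 0.005. The CIC library was thus 1.29 times as deep as the IgG library. On lists simulated from this same model 400 of 400 read counts were recovered, which checks the solving and not the model. Backgrounds were whole reads, the lowest value, or multiples of 156 bp over 1 kb or 10 kb, and a value that fits both was read as 1 kb. Ratio intervals are exact binomial, or Poisson at the genome-wide rate. Reads carry no molecular identifiers.

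The 5 genes, every region in their stretches and the pathway list were chosen with earlier results of these data known. Every such region is named. Other genes are named only from the pathway list, or as a neighbour.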

Additional observations from a re-analysis of the deposited data

How the results depend on the processing

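Of 48 alternative values, 37 stayed within 1.5 times the main count or rank, or within the interval of the main value, and 11 moved. This tally does not measure robustness, because several values could not move. Joining cannot change a locus with 1 region, and no other region lay near a stretch. The IGF1R count of 2 became 1 at a q-value of 0.05 or 0.01 or less and with gaps of 1 kb or 10 kb joined. The PLAG1 count of 2 became 1 with either joining. With gaps of 10 kb joined the CCND1 count of 4 became 2 and the total of 10 became 6, since joining merges neighbours by construction. The median fold of 7.65 became 13.1 without the added 1, a change that raises any ratio above 1 by construction. The upper bound of the MAFF ratio moved from 41.5 to 24.6 and the pairs of regions with ratio intervals apart from 1 to 3 with the background read over 10 kb, alternatives chosen after the data were seen. Wider stretches added no region. No paired analysis was possible because each antibody has 1 library. Places relative to genes and words within regions were not run, since hg19 gene starts and sequence were not used here. The overlap of the counting intervals, which is not a test of a difference, left the order of the regions mostly open.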

Other observations

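Chromosome 11 held 9 regions in all, and 8 of them lay from 69 Mb on, the 4 at CCND1 included. The backgrounds of the other 4 were 2.00 to 4.06 reads, as high as at CCND1, while the region at 32.5 Mb had 1.00. This split was noticed after the values were seen, and where it comes from was not tested.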
